A study of Mus musculus with 36 samples.

Results

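The mitochondrial ribosome and the machinery that brings proteins into mitochondria were followed in mouse lung through 21 days of hypoxia and a return to sea-level pressure. Members are the genes whose only symbol in the array annotation begins with Mrpl or Mrps and a digit (ribosomal proteins of the large and small mitochondrial subunits) or with Timm or Tomm (translocases of the inner and outer mitochondrial membranes). There were 64 such genes among the 6971 named genes on the array, namely 48 ribosomal genes (35 Mrpl and 13 Mrps names) and 16 import genes (10 Timm and 6 Tomm names). They were measured by 77 of the 15388 spots, and the spots of a gene were averaged. All BALB/c mice of the hypoxic groups breathed at 0.5 atm, for 1, 3, 7, 14 or 21 days, and in the recovery groups 21 days at 0.5 atm were followed by 1, 3, 7 or 14 days at sea-level pressure (days 22, 24, 28 and 35 below). Each of the 9 time points had 4 spotted cDNA arrays, 36 in all, and on each array RNA pooled from the whole lungs of 5 exposed mice was compared with RNA pooled from 5 controls of the same time point. The labels give no genotype, sex or age, and nothing in them says whether a day's 4 arrays hold different animals or repeat the same pools. The p-values of single days thus cover the scatter of arrays, which can be purely technical. Those of the phases cover the scatter of day means, which also holds differences between pools and change over time.

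Every value is a log2 ratio of exposed over control lung as the authors deposited it, so 0 means equal signal in both. Positive ratios are read as more RNA in the exposed lung. This reading is likely but not settled: its only basis is that the protocol lists hypoxic lung and Cy5 ahead of control and Cy3. The files give ratios and no levels, so genes cannot be ranked by abundance and the labelled tissue cannot be checked against the level of its markers. In RNA from a whole organ, fewer cells of a type and less RNA per cell cannot be told apart.

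Mitochondria carry a small genome that encodes core subunits of the respiratory chain, and a dedicated ribosome inside the organelle translates them. All protein subunits of that ribosome are encoded in the nucleus, made in the cytosol and imported. The outer membrane translocase (TOM) takes them in through receptors and a channel, the TIM23 complex threads proteins with an N-terminal signal into the matrix, and small Tim chaperones hand membrane carriers to the TIM22 complex. Nuclear factors such as GABP (an ETS factor), NRF1 and YY1 are known to act at promoters of genes for mitochondrial proteins.

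Promoter windows of RefSeq on GRCm38.p6, 300 bases long and ending shortly after the gene start, were found for 57 of the 64 members (42 ribosomal and 15 import genes). The letters CCGGAAG (an ETS site of the kind GABP binds), on either strand, occurred in windows of 31% of these ribosomal genes and 33.3% of the import genes, against 9.93% of the 27025 genes in the table. TGCGCATGC (an NRF1 site) occurred in 11.9% (5 genes) and 6.67% (1 gene), against 1.72%. AAGATGGCG (a YY1 site) occurred in 14.3% (6 genes) and 6.67% (1 gene), against 1.64%. The end of the ETS letters and the start of the YY1 letters are the same AAG, so such matches can overlap. A match is a description of these letters, not a shown binding site. The 4 windows printed here belong to the ribosomal and import members with the largest rise (Mrpl52, Timm50) and the largest fall (Mrps25, Tomm70a) over the hypoxia phase. They run 5′ to 3′ along the gene's own strand, and capitals mark the matches. They lie at chr14:54426659-54426958, plus strand (Mrpl52), chr7:28311997-28312296, minus strand (Timm50), chr6:92183974-92184273, minus strand (Mrps25) and chr16:57121464-57121763, plus strand (Tomm70a).
Mrpl52: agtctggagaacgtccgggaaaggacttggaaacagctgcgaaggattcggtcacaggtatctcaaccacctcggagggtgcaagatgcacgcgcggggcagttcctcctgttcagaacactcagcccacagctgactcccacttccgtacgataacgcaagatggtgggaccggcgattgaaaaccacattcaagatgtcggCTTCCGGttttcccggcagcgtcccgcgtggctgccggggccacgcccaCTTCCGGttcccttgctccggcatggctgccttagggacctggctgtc
Timm50: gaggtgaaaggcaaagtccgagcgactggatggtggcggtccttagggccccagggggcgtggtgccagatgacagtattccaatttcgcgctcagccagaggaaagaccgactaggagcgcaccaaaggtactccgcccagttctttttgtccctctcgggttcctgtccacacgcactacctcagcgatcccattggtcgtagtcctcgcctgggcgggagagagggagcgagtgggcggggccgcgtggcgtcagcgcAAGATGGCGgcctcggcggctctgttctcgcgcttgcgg
Mrps25: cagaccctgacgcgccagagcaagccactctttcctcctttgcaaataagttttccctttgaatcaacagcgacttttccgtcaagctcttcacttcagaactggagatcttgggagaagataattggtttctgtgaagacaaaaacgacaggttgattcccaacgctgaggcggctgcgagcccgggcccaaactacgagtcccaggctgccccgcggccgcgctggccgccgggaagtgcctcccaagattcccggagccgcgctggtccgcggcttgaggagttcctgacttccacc
Tomm70a: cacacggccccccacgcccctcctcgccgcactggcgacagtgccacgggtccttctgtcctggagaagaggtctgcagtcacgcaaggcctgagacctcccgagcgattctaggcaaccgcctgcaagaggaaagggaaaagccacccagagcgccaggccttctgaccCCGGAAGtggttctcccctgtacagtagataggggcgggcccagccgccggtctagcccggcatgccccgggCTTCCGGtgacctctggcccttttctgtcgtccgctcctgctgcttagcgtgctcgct
The Mrpl52 and Tomm70a windows each held 2 matches to the ETS letters. Any link between matches and ratios was not tested. The Timm50 window held 1 match to the YY1 letters, and the Mrps25 window held none of the 3 motifs. The windows of Mrps11 and Mrpl46 share 141 bases, because these genes start head to head on opposite strands.

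The arrays held values for 14186 to 15042 spots each, and their number limits the precision. Array medians lay between -0.016 and 0.05, and array SDs between 0.169 and 0.525, the widest on replicate 1 of day 28. Within a day, replicates 1 and 2 were alike, as were 3 and 4 (median Pearson r 0.734 over 7560 features, which are not independent replicates), and arrays across these pairs were less so (0.39). Values are therefore also given for each pair of replicates. Genes and unnamed spots together made 12761 features, of which 12159 had enough values for the phase comparisons.

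The first comparison asked which members differed from control lung over the whole hypoxia phase, taking the mean of each of the 5 days as 1 observation. Of 46 ribosomal genes tested, 15 rose and 3 fell (limma, adjusted p under 0.05). Over all features 24.7% rose and 17.7% fell by the same test. Mrps15 and Mrps35, small subunit genes, had values on only 24 and 29 of the 36 arrays. They lacked the 2 arrays needed at each day and were not tested over the phases, only at single days with enough values. The changes were small. The median of the 46 genes was 0.056, against 0.026 over all features, and 24 of the 46 means lay within 0.1 of 0. Large subunit names accounted for most of the calls, with 13 higher and 1 lower of 35 (median 0.055), while 2 of 11 small subunit names rose and 2 fell (median 0.065). Of the import genes, 6 of 16 rose and 3 fell, with a median of 0.050. Among them 5 of 10 Timm genes rose and 2 fell, and 1 of 6 Tomm genes rose and 1 fell. Without day 7, 11 ribosomal and 5 import genes passed, in place of 18 and 9. Of 17 markers of proliferating cells, 6 rose and 2 fell over hypoxia, with day medians from 0.069 to 0.34. Their median was highest at day 3 (0.34), where the ribosomal median was 0.026 and the import median -0.034. At day 7 the marker median was 0.31 and both member medians were 0.14. The part of these cells in the results was not tested, and markers of other cell types are given below.

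**Figure D1:**
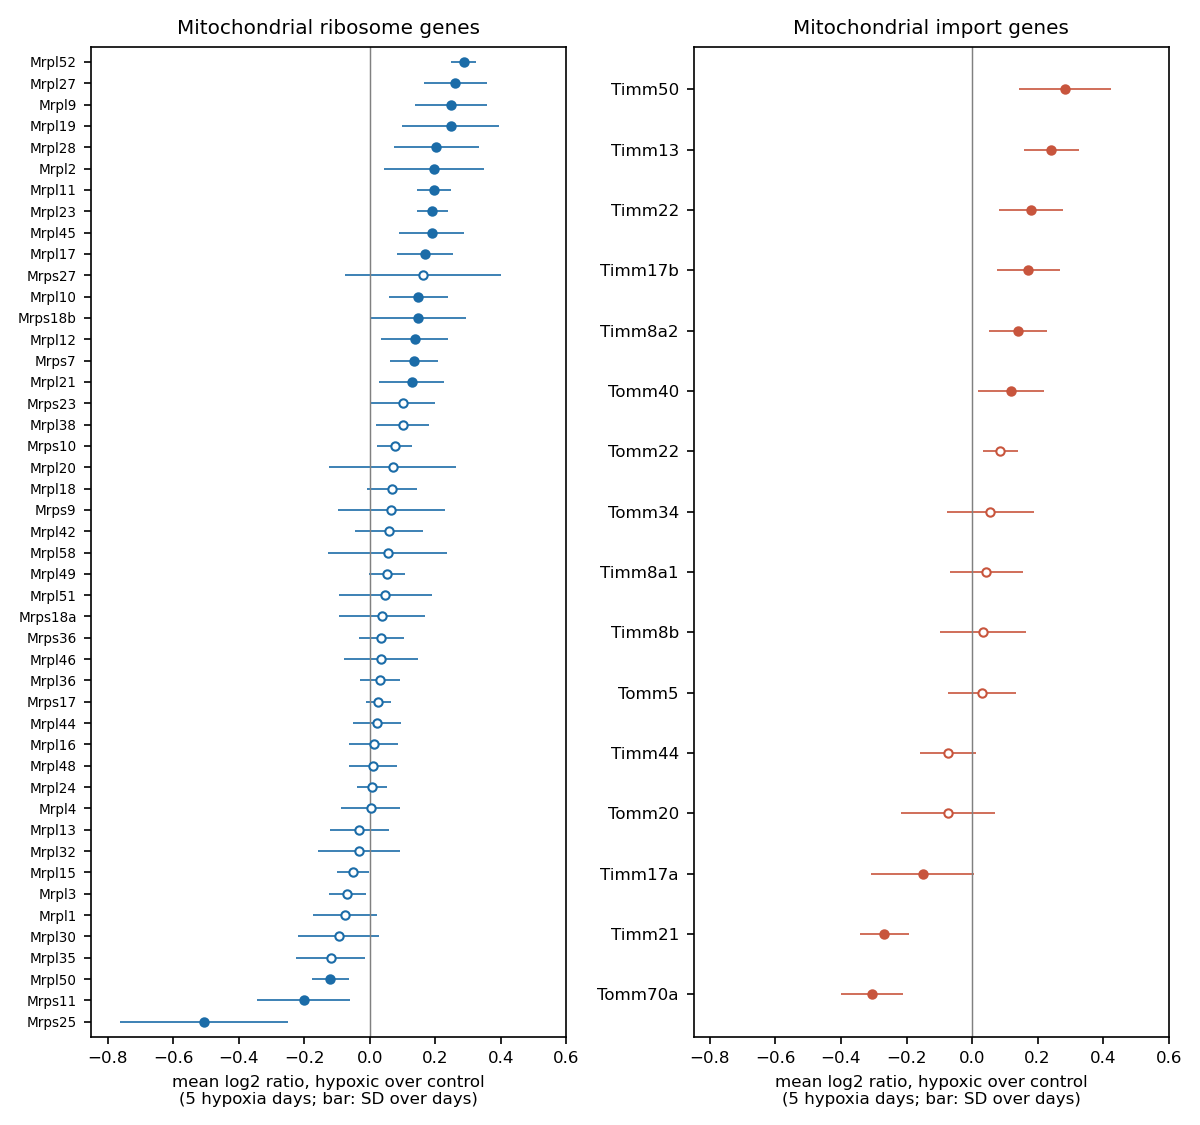
Mean log2 ratio of exposed over control lung across the 5 hypoxia days for each tested ribosomal gene (left) and import gene (right), with bars of 1 SD over days; filled points passed an adjusted p of 0.05. Mrps25 lies lowest at -0.51, apart from the other ribosomal genes, and the import genes run from -0.31 (Tomm70a) to 0.28 (Timm50).

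Among large subunit proteins, Mrpl52 had day means of 0.27, 0.29, 0.33, 0.31 and 0.23 at days 1, 3, 7, 14 and 21. All 5 lay in a narrow band above 0. Its phase mean was 0.29 ± 0.039 (SD, n = 5 days), a 1.22-fold difference (limma adjusted p = 0.000279). On the 20 single arrays it ran from -0.16 to 0.67 with a median of 0.30, and 18 were above 0. The 2 pairs of replicates differed, however, at 0.090 in replicates 1 and 2 (adjusted p = 0.311, limma) and 0.48 in replicates 3 and 4.

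Mrpl27, a large subunit protein, stood at 0.20, 0.28, 0.39, 0.30 and 0.14 over the same days. The highest value was at day 7 and the lowest at day 21. Its mean was 0.26 ± 0.097 (SD, n = 5 days; limma adjusted p = 0.00266), and 19 of 20 hypoxia arrays were above 0.

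Mrpl9 and Mrpl19, 2 further large subunit proteins, were also higher at every hypoxia day. Mrpl9 stood at 0.22, 0.20, 0.42, 0.27 and 0.13, with a mean of 0.25 ± 0.11 (SD, n = 5 days; limma adjusted p = 0.00319). Mrpl19 stood at 0.27, 0.35, 0.41, 0.17 and 0.039, with a mean of 0.25 ± 0.15 (limma adjusted p = 0.00616, n = 5 days). Both were highest at day 7, and Mrpl19 was close to 0 at day 21.

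Mrpl28, also of the large subunit, was at 0.038, 0.18, 0.40, 0.22 and 0.18, so that day 1 was near 0 and day 7 the highest. Its mean was 0.20 ± 0.13 (SD, n = 5 days; limma adjusted p = 0.00501), made up of 0.34 in replicates 1 and 2 and 0.065 in replicates 3 and 4 (adjusted p = 0.337, limma). The other large subunit genes that rose had means between 0.13 (Mrpl21) and 0.20 (Mrpl2, a core protein near the peptidyl transferase centre). They included Mrpl12 (0.14), which also binds the mitochondrial RNA polymerase. The others were Mrpl10, Mrpl11, Mrpl17, Mrpl23 and Mrpl45. In the small subunit Mrps18b rose by 0.15 and Mrps7, a protein of the head of the small subunit, by 0.13. The 28 ribosomal genes that did not pass ran from -0.12 (Mrpl35) to 0.16 (Mrps27). Among them were Mrps18a (0.037), which despite its name sits in the large subunit, and Mrps36 (0.035), now assigned to the 2-oxoglutarate dehydrogenase complex.

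Mrps25, a small subunit protein, was the member farthest from 0. Its day means were -0.38, -0.40, -0.47, -0.96 and -0.33. All were negative, and day 14 lay well below the other days. The 4 arrays of day 14 read -1.19, -0.93, -0.94 and -0.76. The phase mean was -0.51 ± 0.26 (SD, n = 5 days), 0.705 of the control level (limma adjusted p = 0.000594), and all 20 hypoxia arrays were below 0, from -1.19 to -0.0070. Replicates 1 and 2 gave -0.58 and replicates 3 and 4 gave -0.43. The annotation limits this gene. Another 3 spots carry both the symbol Mrps25 and that of its neighbour Nr2c2, a nuclear receptor gene whose RefSeq span overlaps it on chromosome 6, and their hypoxia means were -0.70, -0.21 and 0.083. Signal from the 2 transcripts cannot be told apart here on such spots.

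The other ribosomal genes that fell were Mrps11 and Mrpl50. Mrps11, a protein of the platform of the small subunit, stood at -0.24, -0.24, -0.38, 0.010 and -0.16, negative at every hypoxia day but day 14, with a mean of -0.20 (limma adjusted p = 0.0152, n = 5 days). It was lower in replicates 1 and 2 (-0.39) and close to 0 in 3 and 4 (-0.012). Mrpl50, a large subunit protein, stood at -0.11, -0.20, -0.048, -0.15 and -0.096, below 0 on each day, with a mean of -0.12 ± 0.056 (SD, n = 5 days; limma adjusted p = 0.0176). In replicates 1 and 2 Mrpl50 was at -0.27, in replicates 3 and 4 it was at 0.026 (adjusted p = 0.674, limma), and it no longer passed without replicate 1 (-0.055) or without replicate 2 (-0.089) of every day.

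Among the receptors of the outer membrane, Tomm70a, which takes in carrier proteins delivered by cytosolic chaperones, fell. Its day means were -0.22, -0.33, -0.43, -0.34 and -0.20. Every day was negative and day 7 was the lowest. The mean was -0.31 ± 0.094 (SD, n = 5 days), 0.809 of the control level (limma adjusted p = 0.00034), and all 20 hypoxia arrays were below 0. Its 2 spots gave -0.41 and -0.20, and the 2 pairs of replicates gave -0.45 and -0.16. Tomm20, the receptor for N-terminal signals, stood at 0.099, -0.15, -0.15, -0.23 and 0.058, lower at days 3 to 14 and higher at days 1 and 21, and its mean of -0.074 did not pass (limma adjusted p = 0.27, n = 5 days). Tomm22, the central receptor, was at 0.086 (limma adjusted p = 0.0761, n = 5 days) and was above 0 on 15 of 20 arrays.

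Tomm40, the channel itself, rose by 0.12 (limma adjusted p = 0.0497, n = 5 days), just inside the threshold. The small channel subunit Tomm5 (0.031) and Tomm34 (0.056), a cytosolic co-chaperone despite its name, did not pass.

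In the TIM23 complex, members moved in both directions. Timm50, the receptor that guides proteins from TOM to the TIM23 channel, stood at 0.19, 0.25, 0.51, 0.31 and 0.16. Its highest day was day 7. The mean was 0.28 ± 0.14 (SD, n = 5 days), a 1.22-fold difference (limma adjusted p = 0.00129), and 19 of 20 hypoxia arrays were above 0. Its 2 spots gave 0.35 and 0.22, and replicates 1 and 2 (0.38) and 3 and 4 (0.18) each passed on their own. Timm21, which links the channel to TOM and to respiratory chain assembly, stood at -0.26, -0.26, -0.39, -0.24 and -0.20. It was negative at each day and on all 20 hypoxia arrays. Its mean was -0.27 ± 0.074 (SD, n = 5 days), 0.831 of the control level (limma adjusted p = 0.000418).

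The paralogues Timm17a and Timm17b, alternative subunits of the TIM23 channel, went opposite ways. Timm17a stood at 0.041, -0.19, -0.36, -0.20 and -0.035 and had a mean of -0.15 (limma adjusted p = 0.0398, n = 5 days). Timm17b stood at 0.051, 0.26, 0.21, 0.24 and 0.087 and had a mean of 0.17 (limma adjusted p = 0.0107, n = 5 days). The gap between them was largest at days 3, 7 and 14 and small at days 1 and 21. With all arrays scaled to a common spread Timm17b no longer passed (0.12, adjusted p = 0.0555, limma). Timm44, which tethers the import motor to the channel, was at -0.073 and did not pass.

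Timm22, the channel for membrane carriers, rose by 0.18 ± 0.097 (SD, n = 5 days; limma adjusted p = 0.0125), with 0.071, 0.26, 0.30, 0.11 and 0.16 at the 5 days, and without day 7 it no longer passed (0.15, adjusted p = 0.0547, limma). The small chaperones of the space between the membranes were spread from near 0 upward. Timm13 rose by 0.24 ± 0.085 (SD, n = 5 days; limma adjusted p = 0.00119), with 0.20, 0.20, 0.39, 0.25 and 0.18, all of them positive. Timm8a2 rose by 0.14 (limma adjusted p = 0.0403, n = 5 days), whereas its near copy Timm8a1 (0.044) and Timm8b (0.033), partners of Timm13, did not pass. Spots of the 2 Timm8a copies may each take up RNA of the other, which was not tested.

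The replicate pairs were also tested apart. In replicates 1 and 2, 15 of the 45 ribosomal genes with values in both pairs rose and 3 fell, and in replicates 3 and 4, 9 rose and 7 fell (limma, adjusted p under 0.05). Over all features 21.5% rose and 17.9% fell in replicates 1 and 2, and 29.3% rose and 22.7% fell in replicates 3 and 4. Only Mrps25 was called in both pairs with the same sign, and Mrpl24 and Mrpl16, both large subunit proteins, were called in opposite directions. Mrpl24 was at 0.29 in replicates 1 and 2 (adjusted p = 0.00144, limma) and -0.28 in 3 and 4 (adjusted p = 0.000992, limma), and Mrpl16 was at 0.25 and -0.22. Their means over all arrays, 0.0065 and 0.011, therefore average values of opposite sign. Of the 18 ribosomal genes called on all arrays, 1 (5.56%) was called in each pair alone, against 1850 of 5087 (36.4%) of all called features with values in both pairs. The sign was the same in both pairs for 17 of the 18 (94.4%), against 89.1% of called features. Of the 9 import genes called on all arrays, 3 (33.3%) were called in each pair alone: Timm50, Timm21 and Tomm70a. All 9 (100%) had the same sign in both pairs. The median of the ribosomal genes was 0.12 in replicates 1 and 2 and 0.026 in replicates 3 and 4, and that of the import genes 0.066 and 0.044. Over all genes tested, called or not, signs were shared between the pairs by 57.8% of the ribosomal genes and 75% of the import genes, against 56.8% of all features.

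**Figure D2:**
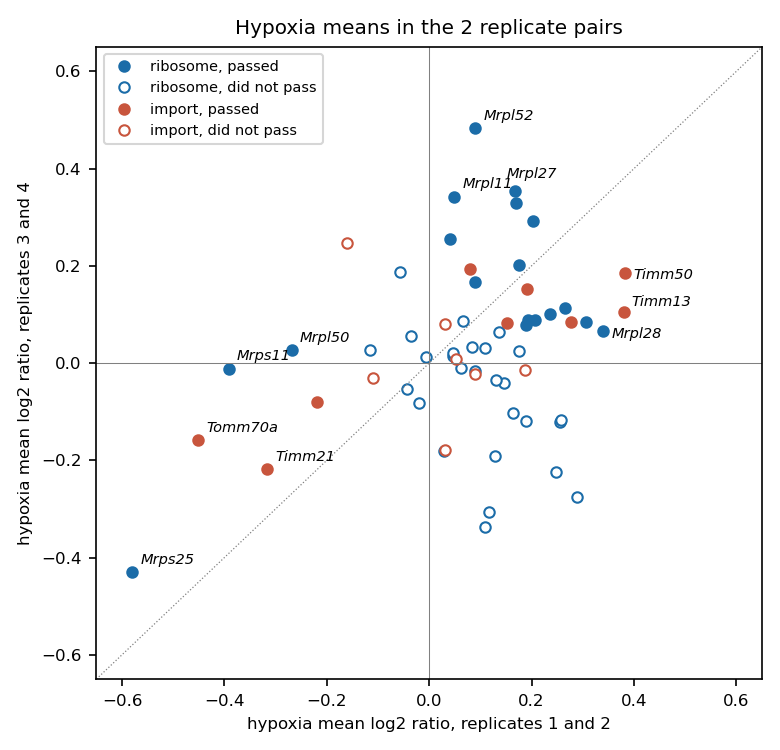
Mean log2 ratio over the hypoxia days in replicates 1 and 2 (horizontal) against replicates 3 and 4 (vertical) for each ribosomal and import gene; filled points passed an adjusted p of 0.05 on all arrays. Mrps25, Tomm70a and Timm21 lie low on both axes and Timm50 high on both, while many ribosomal genes lie far from 0 on 1 axis only.

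The course over time was examined day by day on all 36 arrays, taking the 4 arrays of a day as independent. Since arrays of a replicate pair were more alike, each day was also fitted with the pair as a random term. That left 3 of 9 calls at day 1 (2 ribosomal genes higher and 1 lower), 5 of 13 at day 3, 5 of 11 at day 14 and 8 of 15 at day 28, while day 7 kept 18 of 27. At day 1, 7 of 47 ribosomal genes rose and 1 fell, against 10.6% and 9.04% of all features, and of the import genes none rose and 1 fell. The small subunit gene Mrps18b was the highest ribosomal gene, with 0.40, 0.43, 0.35 and 0.28 on the 4 arrays and a mean of 0.36 (limma adjusted p = 5.45e-05, n = 4 arrays). Its 4 arrays lay close together. Mrpl20, a large subunit protein, rose by 0.30 (limma adjusted p = 0.0204), and Mrps25 (-0.38) and Timm21 (-0.26) were already lower. Mrps18b still passed whichever replicate was left out. Mrpl20 did not pass without replicate 1 (0.27), 2 (0.26) or 4 (0.31), Mrps25 without replicate 2 (-0.23), and Timm21 without replicate 1, 3 or 4 (-0.28, -0.24 and -0.22). The 9 calls of the 2 groups fell to 4 without replicate 2 and to 3 without replicate 3 or 4.

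At day 3, 6 of 46 ribosomal genes rose and 1 fell (13.3% and 9.95% of all features), and 3 import genes rose and 3 fell. Mrpl19 (0.35, limma adjusted p = 0.000179) and Mrpl27 (0.28) were the highest ribosomal genes that passed and Mrps25 (-0.40) the lowest. In the import group Timm17b (0.26) and Timm22 (0.26) were higher, and Tomm70a (-0.33) and Timm21 (-0.26) lower. Mrpl19 and Mrps25 still passed whichever replicate was left out. The 13 calls fell to 5 without replicate 1 or 2 and to 8 without replicate 4. Mrpl27 no longer passed without replicate 3 (0.22) or 4 (0.23), Tomm70a without replicate 2 (-0.25), and Timm21 without replicate 1 (-0.21) or 2 (-0.16). Timm22 did not pass without any of the 4 (0.21 to 0.31), nor Timm17b without replicate 1, 2 or 3 (0.20, 0.22 and 0.29).

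Day 7 had the most calls, and the medians over the members' day means were highest there in both groups. Of 46 ribosomal genes 16 rose and 2 fell (20.4% and 15.5% of all features), and 6 import genes rose and 3 fell. The medians were 0.14 for ribosomal genes and 0.14 for import genes, against 0.041 over all features. On single arrays the median of the ribosomal genes was 0.17 ± 0.098 (SD, n = 4 arrays), from 0.043 to 0.28. That of the import genes was 0.097 ± 0.079, and its highest mean was at day 24, with 0.12 ± 0.059 (SD, n = 4 arrays). Timm50 was the highest import gene, with 0.64, 0.78, 0.41 and 0.22 on the 4 arrays and a mean of 0.51 (limma adjusted p = 1.03e-05). All its arrays were positive, and replicates 1 and 2 were above 3 and 4. Mrpl2 rose by 0.43 (limma adjusted p = 0.000104), and Tomm40 by 0.24. Mrps27, an RNA-binding small subunit protein, had the largest mean (0.54), but on 3 arrays that read 1.33, 0.17 and 0.12, and without replicate 2, the array at 1.33, it was at 0.14 and did not pass. Mrpl58, a peptidyl-tRNA hydrolase built into the ribosome, passed at this day alone among the 9 (0.35). The lowest members were Mrps25 (-0.47), Tomm70a (-0.43) and Timm21 (-0.39). Without replicate 1 the 27 calls fell to 17, and Tomm40 did not pass without replicate 2 (0.21). With a common spread the calls of this day fell to 11 (5 ribosomal genes higher and 1 lower, 2 import genes higher and 3 lower), and the share of all called features that were higher went from 56.9% to 43.2%.

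At day 14, 3 of 47 ribosomal genes rose and 2 fell (15.5% and 12.2% of all features), and 2 import genes rose and 4 fell. The medians were close to 0, at 0.0100 for ribosomal and -0.0022 for import genes, and the former turned to -0.011 with arrays centred on their medians and -0.020 with a common spread. Mrpl27 (0.30, limma adjusted p = 0.00134) and Mrpl9 (0.27) remained among the higher genes, with Timm50 (0.31) and Timm17b (0.24). Mrps25 was at its lowest (-0.96, limma adjusted p = 1.04e-09), and Tomm70a (-0.34) and Timm21 (-0.24) were lower too. The fall of Mrps25 and the rise of Mrpl27 passed whichever replicate was left out. Mrpl9 and Timm50 did not pass without replicate 3 (0.25 and 0.28), Mrpl9 also not without replicate 4 (0.24), Tomm70a without replicate 1 (-0.23), Timm21 without replicate 1 or 3 (-0.16 and -0.21), and Timm17b without any of the 4 (0.18 to 0.28). The 11 calls fell to 3 without replicate 3. With a common spread the share of called features that were higher went from 55.9% to 44%.

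At day 21 Mrps25 alone passed, with -0.52, -0.57, -0.22 and -0.0070 on the 4 arrays and a mean of -0.33 (limma adjusted p = 0.0255), against 2.22% higher and 2.3% lower of all features. Without replicate 1 (-0.27), 2 (-0.25) or 3 (-0.37) it did not pass. At an unadjusted p under 0.05 in limma, 3 of 48 ribosomal genes were higher and 1 lower, and 3 of 16 import genes were higher and 2 lower, against 7.38% and 7.63% of all features. With the replicate pair as a random term no member passed at this day.

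**Figure D3:**
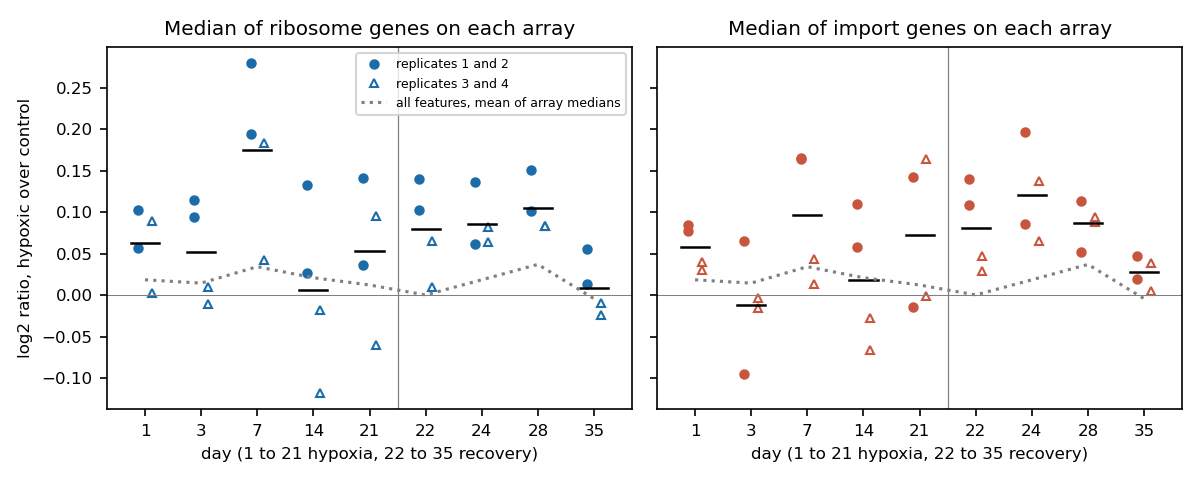
Median log2 ratio of the ribosomal genes and of the import genes on each array, by day; dots are replicates 1 and 2, triangles replicates 3 and 4, dashes the mean of a day and the dotted line the median over all features. The mean of the ribosomal medians is highest at day 7, where the 4 arrays run from 0.043 to 0.28. It is near 0 at day 14, where the arrays spread from -0.12 to 0.13, and at day 35, where they run from -0.024 to 0.056.

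After the return to sea-level pressure few members passed. Over the 4 recovery days 1 ribosomal gene of 46 and 1 import gene of 16 rose and none fell (limma, adjusted p under 0.05), against 1.65% higher and 3.12% lower of all features. At an unadjusted p under 0.05, 12 ribosomal genes were higher and none lower, and 6 import genes were higher and 2 lower, against 16.1% higher and 13.8% lower of all features. With all arrays scaled to a common spread the calls were more, at 8 ribosomal genes higher and 7 import genes higher and 2 lower, and at day 24 alone 14 members passed in place of 0. Small positive values were common: 42 of the 46 ribosomal means and 12 of the 16 import means were above 0, against 57.5% of all features, with medians of 0.064 and 0.086, against 0.023.

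Mrpl52 stood at 0.15, 0.13, 0.27 and 0.13 at days 22, 24, 28 and 35, positive at each. Its mean was 0.17 ± 0.066 (SD, n = 4 days; limma adjusted p = 0.0448), and 11 of 16 recovery arrays were above 0. Tomm20 stood at 0.18, 0.21, 0.31 and 0.20, with a mean of 0.22 ± 0.060 (SD, n = 4 days; limma adjusted p = 0.0481) and 13 of 16 arrays above 0. Its 3 spots each gave a positive mean (0.24, 0.24 and 0.19). Both calls were near the threshold. Mrpl52 did not pass in 12 of 23 alternatives, among them those without replicate 3 (0.11) or 4 (0.14), and Tomm20 not in 11, among them those without replicate 1 (0.17) or 2 (0.18). Next in line were Mrpl23, a large subunit protein (0.17, limma adjusted p = 0.057, n = 4 days), and Timm8b (0.22, limma adjusted p = 0.0619, n = 4 days), which did not pass. Without replicate 4, or without day 35, Timm8b did pass (0.27 and 0.30), and Mrpl23 passed without day 35 (0.22).

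By single day, no member passed at days 22, 24 and 35 (limma). At an unadjusted p under 0.05, 7 ribosomal and 3 import genes were higher at day 22 with none lower, 8 and 6 were higher at day 24 with 1 ribosomal gene lower, and 1 and 1 were higher at day 35. At that threshold 4.05% of all features were higher and 5.75% lower at day 22, 7.56% and 8.23% at day 24, and 4.77% and 5.17% at day 35. By adjusted p, 0.805% of all features rose and 0.756% fell at day 22, 0.754% and 2.12% did at day 24, and 1.81% and 1.36% at day 35. The share of called features that were higher depended on the scaling. At day 22 it went from 51.6% to 51.3% with median centring and to 37.7% with a common spread. At day 24 it went from 26.3% to 16.2% and 35.9%, and over the recovery phase from 34.7% to 30% and 44.8%, in the same order. At day 35 the medians of both groups were again near 0 (0.0010 and -0.0071).

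Day 28, 7 days after the return, held all 15 single-day calls of the recovery phase, with 10 of 46 ribosomal genes higher and 1 lower (18.6% and 13.5% of all features) and 4 import genes higher. Mrpl11, a large subunit protein of the factor-binding stalk base, read 0.62, 0.16, 0.49 and 0.36 and had a mean of 0.41 (limma adjusted p = 0.000656, n = 4 arrays). All 4 arrays were positive. Mrpl27 had a mean of 0.39 (limma adjusted p = 4.44e-05); at day 7 it was 0.39. Timm8a2 (0.37) and Tomm20 (0.31) were the highest import genes with 1 sign on all arrays. Mrpl4, a core protein of the large subunit, was the only member that passed below 0 at day 28, with -0.89, -0.085, -0.32 and -0.14 and a mean of -0.36. Replicate 1 of that day, the array with the widest spread, lay far below the others, and without it Mrpl4 was at -0.18 (adjusted p = 0.226, limma) and Tomm20 at 0.25 (adjusted p = 0.0677, limma). The 15 calls of this day fell to 6 without that array, and to 5 without replicate 1 of every day. Cytosolic ribosomal proteins, a list of 71 genes with Rpl and Rps names, moved on the same day. Of these genes 42 (59.2%) were higher and none lower (median 0.28). How far their calls rest on replicate 1 of that day was not tested. Over the whole recovery phase 11 of the 71 (15.5%) rose and none fell (median 0.13), against 1.65% and 3.12% of all features. Over hypoxia 7 (9.86%) rose and 7 (9.86%) fell (median -0.012), against 24.7% and 17.7% of all features.

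The difference between the phases was tested directly. No member passed (limma, adjusted p under 0.05), and 4 ribosomal genes and 4 import genes were lower in hypoxia at an unadjusted p under 0.05, with 1 import gene higher. At that threshold 6.69% of all features were higher and 8.47% lower, and by adjusted p 0.0329% were higher and 0% lower. The lowest p among ribosomal genes was that of Mrps25, with a difference of -0.45 (hypoxia mean -0.51, recovery mean -0.052; limma adjusted p = 0.119), and then Mrpl35, a large subunit protein (-0.18, from -0.12 and 0.059; limma adjusted p = 0.248). Among import genes Timm21 (-0.24; limma adjusted p = 0.106) and Tomm20 (-0.30; limma adjusted p = 0.123) came first. None of these differences passed. The medians of the differences, 0.011 for ribosomal and 0.0024 for import genes, turned negative with a common spread (-0.027 and -0.028), and the latter also with median centring (-0.0047).

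The day means of hypoxia and recovery did not overlap for Mrps25, Mrpl50, Timm21, Tomm20 and Tomm70a, all lower in hypoxia. Of all features, 2.57% had higher and 3.14% lower hypoxia means without overlap. Mrps25 stood at 0.024, -0.19, -0.043 and 0.00077 at the 4 recovery days, close to 0 except at day 24. The 3 spots that carry both its symbol and that of Nr2c2 had recovery means of -0.52, -0.12 and 0.056. Timm21 stood at -0.052, -0.033, -0.015 and -0.022, within 0.1 of 0 throughout, and Tomm70a at -0.11, -0.089, -0.18 and -0.094, still negative at each day.

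**Figure D4:**
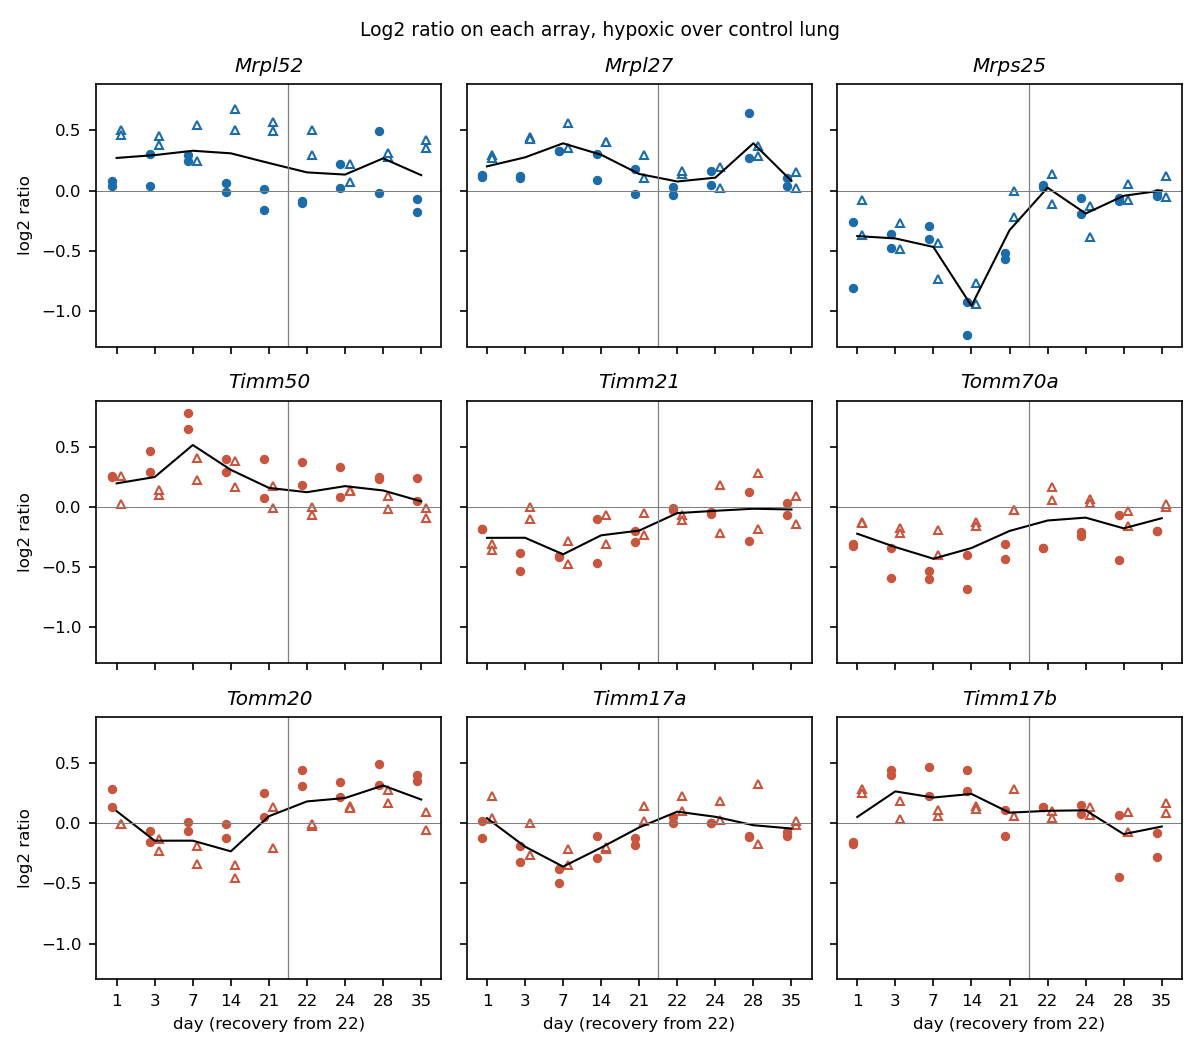
Log2 ratio on each array by day for 9 members (Mrpl52, Mrpl27, Mrps25, Timm50, Timm21, Tomm70a, Tomm20, Timm17a and Timm17b); dots are replicates 1 and 2, triangles replicates 3 and 4, and the line joins day means. Mrps25 reaches -0.96 at day 14 and lies between -0.19 and 0.024 after day 21, Timm50 peaks at 0.51 at day 7, and Tomm20 lies above 0 at all 4 recovery days.

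The Timm17 pair was followed further, a choice made after their values were seen. Timm17b minus Timm17a was 0.010, 0.46, 0.57, 0.45 and 0.12 at the hypoxia days and 0.0070, 0.054, -0.074 and 0.017 at the recovery days. All 4 arrays were above 0 at days 3, 7, 14 and 21, and 2 or 3 of 4 at the other days. The means were 0.32 ± 0.24 (SD, n = 5 days) and 0.00085 ± 0.054 (SD, n = 4 days). An exact two-sided permutation test over the 126 regroupings of days gave p = 0.0635, where 0.0159 is the smallest possible. The pair was chosen by these same values, so the test cannot measure chance and no conclusion is drawn from it. The 2 genes are paralogues, and how far each spot takes up RNA of the other was not tested.

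Genes that work beside the members were taken from lists chosen with earlier results of these data known. Their counts over hypoxia are to be read against the 24.7% higher and 17.7% lower of all features. Of 15 factors of mitochondrial translation and RNA handling, 6 (40%) rose and 1 (6.67%) fell. The elongation factors Tufm (0.20) and Tsfm (0.20) and the initiation factor Mtif2 (0.20) rose, and the elongation factor Gfm1 fell (-0.22). In replicates 1 and 2, and then in 3 and 4, Tufm was at 0.152 and 0.249 and Gfm1 at -0.123 and -0.313. Tsfm (0.361 and 0.0386) and Mtif2 (0.0595 and 0.332) were near 0 in 1 pair. In recovery Gfm2, which takes part in ribosome recycling (-0.28), and Nsun4, a methyltransferase of mitochondrial ribosomal RNA (-0.23), were lower. Of 18 import partners outside the Timm and Tomm names, 4 (22.2%) rose and 3 (16.7%) fell, close to the shares of all features, including Chchd4, the receptor of disulphide-coupled import (0.18), Pam16, a regulator of the import motor (0.18), and the nucleotide exchange factor Grpel2 (-0.20). By pair in the same order, Chchd4 was at 0.104 and 0.239, Pam16 at 0.285 and 0.027, and Grpel2 at -0.0304 and -0.369. Of 13 regulators of mitochondrial gene expression 1 (7.69%) rose and 3 (23.1%) fell. The mitochondrial DNA helicase Twnk rose (0.26), while Tfam (-0.15), which packages mitochondrial DNA, its transcription partner Tfb2m (-0.22) and Yy1 (-0.15) fell. By pair Twnk was at 0.327 and 0.162, Tfb2m at -0.278 and -0.167, and Yy1 at -0.136 and -0.17. Tfam was at -0.0143 and -0.306. Of 2 further proteins in or at the mitochondrial ribosome, the small subunit protein Dap3 rose (0.16, by pair 0.129 and 0.192). The ribosome-bound insertase Oxa1l was at 0.0087 and did not pass, with pair values of opposite sign (0.224 and -0.207).

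Markers of the cell types that whole lung can hold were also followed over hypoxia. Their counts are to be read against the 24.7% higher and 17.7% lower of all features, and most of these lists hold few genes. Of 6 erythroid markers 4 rose and none fell, with medians by day from 0.28 to 1.04 in hypoxia and -0.41 to 1.06 in recovery. Macrophage markers fell in 3 of 4 genes (day medians -0.49 to -0.27 in hypoxia, -0.33 to 0.027 in recovery). Endothelial markers rose in 3 of 5 genes and fell in 1 (0.16 to 0.42, and -0.29 to 0.071). Proliferation markers had day medians of 0.069 to 0.34 in hypoxia and -0.087 to 0.19 in recovery. Lung epithelium had 2 of 5 (40%) higher and 1 (20%) lower, neutrophils 1 of 4 (25%) each way, and adipose tissue 1 of 2 each way. Counts this small do not show that these cell types changed. Cardiac muscle was represented by Nppb alone, which did not pass in either phase but passed as higher at day 22 (0.88). Its day means ran from -0.27 to 0.27 in hypoxia and from -0.10 to 0.88 in recovery. The part of these cell types in the members' ratios was not tested.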

How the data were processed

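Lung RNA of exposed and control mice was compared on 36 spotted 2-colour cDNA arrays. Per the labels' protocols, the authors made cDNA with Superscript II, read the slides with GenePix Pro 4.0, subtracted background, dropped poor spots and deposited log2 ratios of median intensities after lowess. The deposited log2 values were taken unchanged, and dropped spots stayed empty. Gene names came from the platform annotation (9598 of 15388 had 1 symbol, 514 several and 5276 none), all 64 members matched RefSeq by Entrez identifier, and spots of a gene were averaged. Tests used limma 3.58.1 (lmFit, eBayes) in R 4.3.3, two-sided, with Benjamini-Hochberg adjustment over all features and a threshold of 0.05. Single days were fitted on all arrays (at least 3 of 4 values), and phases on 9 day means (at least 2 arrays at each day). The fits were tested on simulated data with independent arrays. Those data lacked the likeness within replicate pairs, so they cannot vouch for the single-day p-values. Members, gene lists and the 9 plotted genes were chosen with earlier results of these data known. Full values are given for members that passed with 1 sign, by size, up to 5 a direction for phases and 2 for days, or else the lowest p; where a list had fewer than 2, the lowest p filled it. Alternatives covered centring, spread, missing values, spots, replicates and days.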

Additional observations from a re-analysis of the deposited data

Results flagged for a closer look

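Among 237 groups of 4 arrays (the named members by day), 12 held an array that lay far from the other 3, with a gap past Dixon's critical value for its group's range. Chance alone marks about 1 group in 20, which is close to this number, so no weight is placed on their count. Values are log2 ratios. In hypoxia, replicate 4 of day 7 had Mrpl19 at 0.253 (the others 0.452 to 0.462), and replicate 4 of day 3 had Mrpl23 at 0.054 (0.2 to 0.229). Mrpl27 was at 0.558 on replicate 3 of day 7 (0.326 to 0.351). Mrpl4 was at 0.505 on replicate 2 of day 14 (-0.115 to -0.061), and Mrpl9 at -0.0585 on replicate 2 of day 3 (0.29 to 0.293). Timm50 was at 0.0197 on replicate 4 of day 1 (0.248 to 0.26). In recovery, Mrpl28 was at -0.369 on replicate 4 of day 35 (0.138 to 0.191). Mrps25 was at 0.0579 on replicate 4 of day 28 (-0.084 to -0.065) and at 0.121 on replicate 4 of day 35 (-0.049 to -0.022). Timm22 was at 0.548 on replicate 1 of day 24 (0.117 to 0.15) and at -0.124 on replicate 4 of day 35 (-0.016 to -0.005). Tomm40 was at 0.0869 on replicate 3 of day 28 (-0.028 to -0.022).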

How the results depend on the processing

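Over the hypoxia phase Mrps25 (-0.581 to -0.393), Tomm70a (-0.452 to -0.159), Timm21 (-0.317 to -0.218) and Timm50 (0.185 to 0.383) passed under all 23 alternatives. Mrpl52, Mrpl27, Mrpl9, Mrpl19, Mrpl28 and Timm13 were lost under 1, Timm22 and Timm17b under 2 and Mrpl50 under 3. Mrpl50 turned to 0.0261 (limma adjusted p = 0.675) in replicates 3 and 4. The cause of these changes was not tested. Of the values under alternatives for named genes that had passed, 671 kept their call, 135 lost it and 1 (Mrpl50) changed sign; for those that had not, 18 passed and 119 did not. Of the group medians, 390 moved by less than the spread between arrays or days and 18 by more.

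Calls were compared with 1 ribosomal and 1 import gene in recovery, none for the difference, and 9, 13, 27, 11, 1, 0, 0, 15 and 0 members at days 1, 3, 7, 14, 21, 22, 24, 28 and 35. Median centring left 0 import genes in recovery and gave day 28 medians of 0.0678 (ribosomal) and 0.0396 (import). A common spread gave 8 ribosomal and 9 import genes in recovery, 3, 11, 3, 4, 14, 8 and 2 members at days 3, 7, 14, 22, 24, 28 and 35, and day 28 medians of 0.0566 and 0.0394. In replicates 1 and 2 the ribosomal median over hypoxia was 0.116 (0.101 at day 1, 0.0941 at day 3), and the import median was 0.0931, 0.0197 and 0.0417 at days 14, 28 and 35. There 2 ribosomal and 3 import genes passed in recovery, and 4, 20, 3, 8 and 2 members at days 1, 3, 21, 22 and 35. In replicates 3 and 4, 3 ribosomal and 0 import genes passed in recovery, and 17, 2, 1, 7 and 1 members at days 14, 21, 22, 28 and 35, with import medians of 0.0594, 0.0378, 0.0443 and 0.0155 at days 7, 22, 28 and 35. Features with all values gave 2 ribosomal genes in recovery, a limit of 1 array per day gave 0 import genes, and 1 spot per gene gave an import median of 0.0272 at day 28.

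Fitting each day alone gave 5, 0, 11, 1, 0, 6 and 8 members at days 1, 3, 7, 14, 21, 24 and 28, and the replicate pair as a random term gave 3, 5, 5, 0 and 8 at days 1, 3, 14, 21 and 28. All 36 arrays with day as a random term gave 6 ribosomal and 4 import genes in recovery, and 1 and 2 for the difference. Without day 7, 11 ribosomal and 5 import genes passed in hypoxia. Recovery fell to 0 ribosomal genes without day 1, 3, 21, 22, 24 or 28, and to 0 import genes without day 3, 21, 22, 24 or 28. Leaving out 1 replicate, or replicate 1 of day 28 alone (chosen after seeing the data), gave 0 to 1 ribosomal and 0 to 2 import genes in recovery. It gave 3 to 10, 5 to 14, 17 to 29, 3 to 12, 0 to 1, 0 to 1 and 5 to 15 members at days 1, 3, 7, 14, 21, 22 and 28. The ribosomal median at day 1 was then 0.0382 to 0.0979 and the import median at day 35 -0.0141 to 0.0245.

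The labels number the arrays 1 to 4 in every day. Arrays with the same number on other days correlated with a median r of 0.379 (other numbers -0.241), and 87.5% of the same-number correlations were above 0.1. The lowest was -0.153, however, and 15 of 36 arrays were closest to their own number, so the number was not taken as a pairing. Both numbers of a replicate pair compete in that last count, so it cannot tell whether a pair recurs across days. With the replicate block, 14, 23, 2, 1, 2, 23 and 1 members passed at days 1, 14, 21, 22, 24, 28 and 35, and with all arrays in the phase fit 16 ribosomal and 9 import genes in recovery and 4 and 5 for the difference. The files give no intensities, so how far dim spots limit these ratios was not tested.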
